A study of Mus musculus with 8 samples.

Results

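The genes described are those of polyamine synthesis and its feedback control: Odc1, Srm, Sms and Oaz1. They were chosen by the gene symbol that the array platform's annotation gives to each probe set, a group of short probes for a transcript. They are 4 of 8949 gene symbols on the array and have 6 of its 12422 probe sets that are not controls. Odc1 and Srm have 1 probe set each under their own symbol. Sms and Oaz1 have 2 each, and all of these are annotated both to the gene and to a pseudogene (Sms-ps and Oaz1-ps), so their signals are given as Sms/Sms-ps and Oaz1/Oaz1-ps and cannot be assigned to the gene alone. All 6 probe sets passed the filter on dim signals. The values show that antigen raised Srm in IgM B cells, while none of the 4 genes passed the test in IgMG B cells or in a comparison of the receptors.

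RNA of sorted mouse follicular (FO) B cells was measured on 8 single-colour arrays in 4 groups of 2. The cells carried a B cell receptor against hen egg lysozyme (HEL). In IgMG cells it was a chimera with the parts of IgG1 in place of the IgM spacer, membrane-spanning part and cytoplasmic tail, and in IgM cells it was the IgM receptor. The groups were IgMG cells with HEL (arrays pooling 8 and 6 mice), IgMG cells unstimulated (5 and 6 mice), IgM cells with HEL (4 and 2 mice) and IgM cells unstimulated (2 and 4 mice). The IgMG arrays pooled more mice than the IgM arrays, so receptor and number of mice pooled cannot be told apart. The number of cell sorts also differed, with 2 or 3 for an IgMG array and 1 or 2 for an IgM array. The sources used here do not give strain, age, HEL dose, length of stimulation or the way the receptor was introduced. Nothing in the labels says whether arrays shared mice, so p-values measure the spread between arrays.

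Polyamines are small positively charged molecules that bind nucleic acids and are needed for protein synthesis and cell growth, and activated lymphocytes are known to make more of them. Ornithine decarboxylase, the product of Odc1, makes putrescine from ornithine. Spermidine synthase, from Srm, turns putrescine into spermidine, and spermine synthase, from Sms, turns spermidine into spermine. Antizyme, from Oaz1, binds ornithine decarboxylase and sends it to the proteasome. Polyamines promote the ribosomal frameshift that antizyme translation needs, so much of the control of the pathway acts on protein and is not measured by RNA.

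The median signal of the arrays lay between 40.7 and 47.8. Egr1, an immediate-early gene of receptor signalling, had signals of 2251 to 3396 on the 4 arrays with HEL, against 72.7 to 136 on the 4 unstimulated arrays. Of 10 B cell markers 9 were measured, with a summed signal of 18578 to 26970, and the sum over 6 of 7 T cell markers was 45.4 to 163, with Cd3e at 6.7 to 11.6 and Cd4 at 13.5 to 89.8. The sum over 3 of 5 erythroid markers was 12137 to 19370, with Hba-a1 alone at 9595 to 16616 and its highest value on the first IgMG array with HEL. Alas2 (1198 to 3497) and Klf1 (66.9 to 308) were instead highest on the second unstimulated IgMG array. What these transcripts, present on all 8 arrays, contribute to the results was not tested. Summed over 10 of 10 myeloid markers, the second unstimulated IgMG array had 13251, against 1070 to 5398 on the other arrays. S100a8 (5339), S100a9, Lyz2, Itgam and Mpo were highest on that array. Cd14, Csf1r, C1qa, C1qb and C1qc were instead highest on the first IgMG array with HEL, where Cd14 was at 1005. Over 5 of 7 natural killer cell markers the second unstimulated IgMG array had 1943 against 190 to 480. Over 4 of 4 plasma cell markers that array had 954 against 383 to 600, but of these only Jchain was highest there, at 548 against 22.5 to 178. Xbp1 (383), Prdm1 (17.8) and Sdc1 (5.5) were each higher on other arrays. The second IgM array with HEL had a Gapdh 5'/3' ratio of 0.755, against 0.140 to 0.395 on the others, a measure of how far transcripts reach towards their 5' end. In bulk RNA, fewer cells of a type and less RNA per cell cannot be told apart.

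Srm had the largest response to antigen of the 4 genes. Its signal on the IgMG arrays was 169 and 183 with HEL, against 73.4 and 80.7 unstimulated. On the IgM arrays it was 367 and 628 with HEL, against 50.2 and 84.1 unstimulated. Both IgM arrays with HEL lay above every other array, and both IgMG arrays with HEL lay above all 4 unstimulated arrays, which overlapped between the receptors. Of all tested probe sets, 23.7% in IgMG cells and 27.6% in IgM cells had both arrays with HEL above both unstimulated arrays, and 29.4% and 30.6% had them below. Group means were 176 ± 10.2 in IgMG cells with HEL and 77.0 ± 5.16 in unstimulated IgMG cells, and 498 ± 185 in IgM cells with HEL and 67.2 ± 24.0 in unstimulated IgM cells (SD, n = 2 each). In IgM cells Srm rose by 2.61 ± 0.28 (SE) on the scale of log2(signal + 16), a 6.10-fold change on that scale, with a limma adjusted p = 0.000795. That was the response of rank 34 from the highest among 7453 tested probe sets. In IgMG cells the log2 change was 1.04 ± 0.28 (SE), 2.06-fold, with a 95% interval from 0.40 to 1.69. Its limma adjusted p = 0.0696 over all tested probe sets did not pass 0.05, and its rank was 188. That call in IgMG cells turned on small changes of the fit: the adjusted p was 0.0489 when only the brightest 40% of probe sets were tested and 0.0490 without the first IgM array with HEL. The suffix of the Srm probe set (92540_f_at) is the manufacturer's mark for probes that can also match related sequences, so its signal may not be Srm alone.

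**Figure D1:**
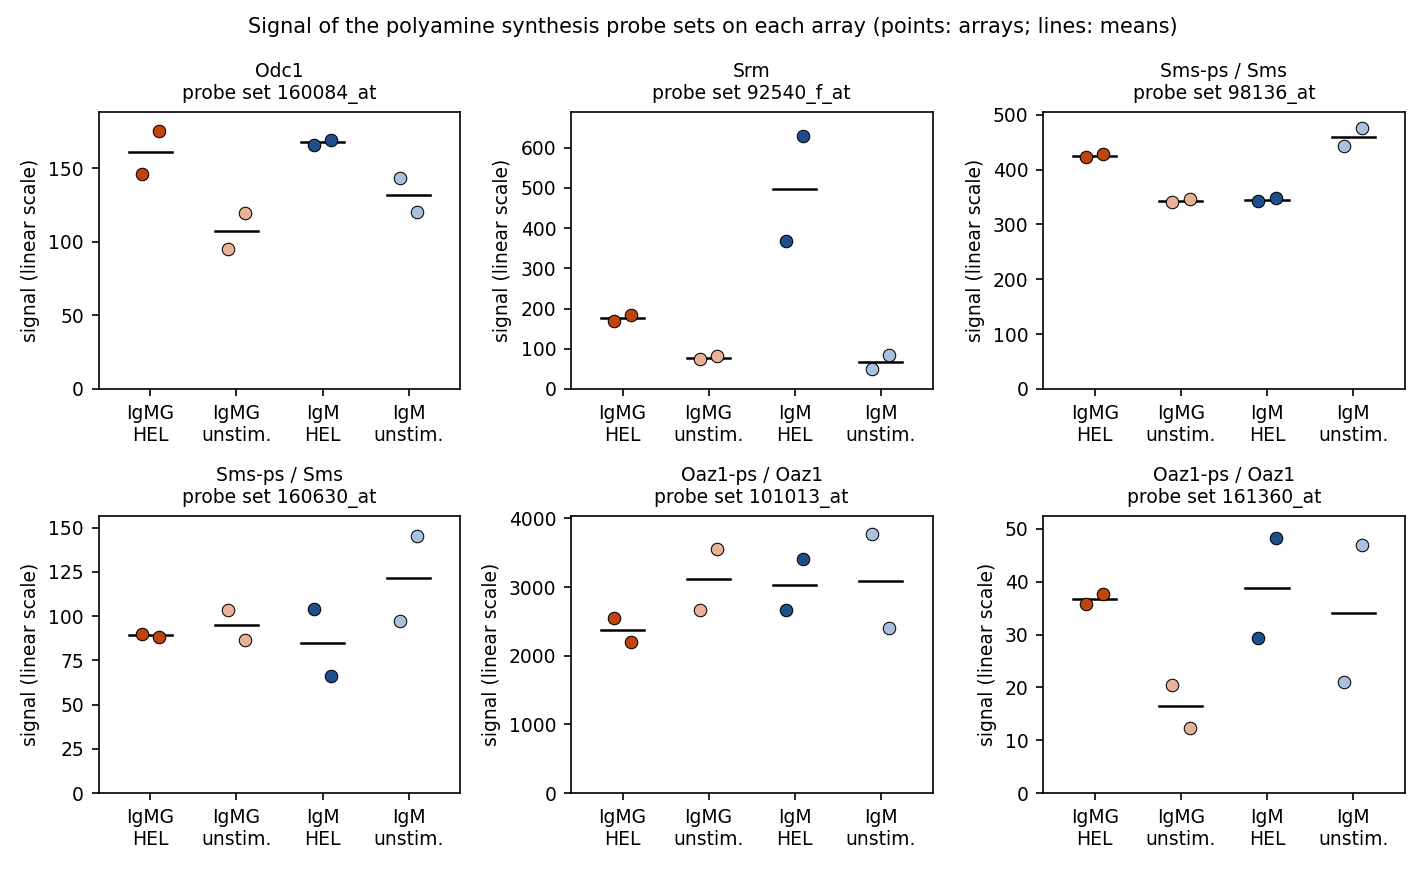
Signal on a linear scale (vertical axes, each starting at 0) of the 6 probe sets of Odc1, Srm, Sms/Sms-ps and Oaz1/Oaz1-ps in 4 groups of 2 arrays, where points are arrays and lines are group means. Srm reaches 367 and 628 on the IgM arrays with HEL and 169 and 183 on the IgMG arrays with HEL, and all 4 unstimulated arrays lie between 50.2 and 84.1.

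Between the receptors, Srm with HEL was at 169 and 183 on the IgMG arrays, below the 367 and 628 of the IgM arrays. The share of all tested probe sets with arrays apart between the receptors was not counted. The log2 difference, IgMG minus IgM, was -1.37 ± 0.28 (SE; 95% interval -2.02 to -0.73), with an unadjusted p = 0.000967 and an adjusted p = 0.192 in limma. Without HEL the difference was 0.19 ± 0.28 (SE; 95% interval -0.45 to 0.84; adjusted p = 0.995), with overlapping arrays. The difference of the HEL responses was -1.56 ± 0.40 (SE; 95% interval -2.47 to -0.65), with an unadjusted p = 0.00374 and an adjusted p = 0.414. It therefore did not pass over all probe sets, where 750 of 7453 had an unadjusted p under 0.05 for this contrast and 0 passed the adjusted threshold. The brighter of the IgM arrays with HEL is also the array with the highest Gapdh 5'/3' ratio. Without that array Srm still rose in IgM cells, by 2.23 on the log2 scale (limma adjusted p = 0.00810), and the difference of the responses was -1.19 (adjusted p = 0.714). With the Gapdh ratio as a covariate the difference was -1.24 (unadjusted p = 0.0521, adjusted p = 0.919).

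**Figure D2:**
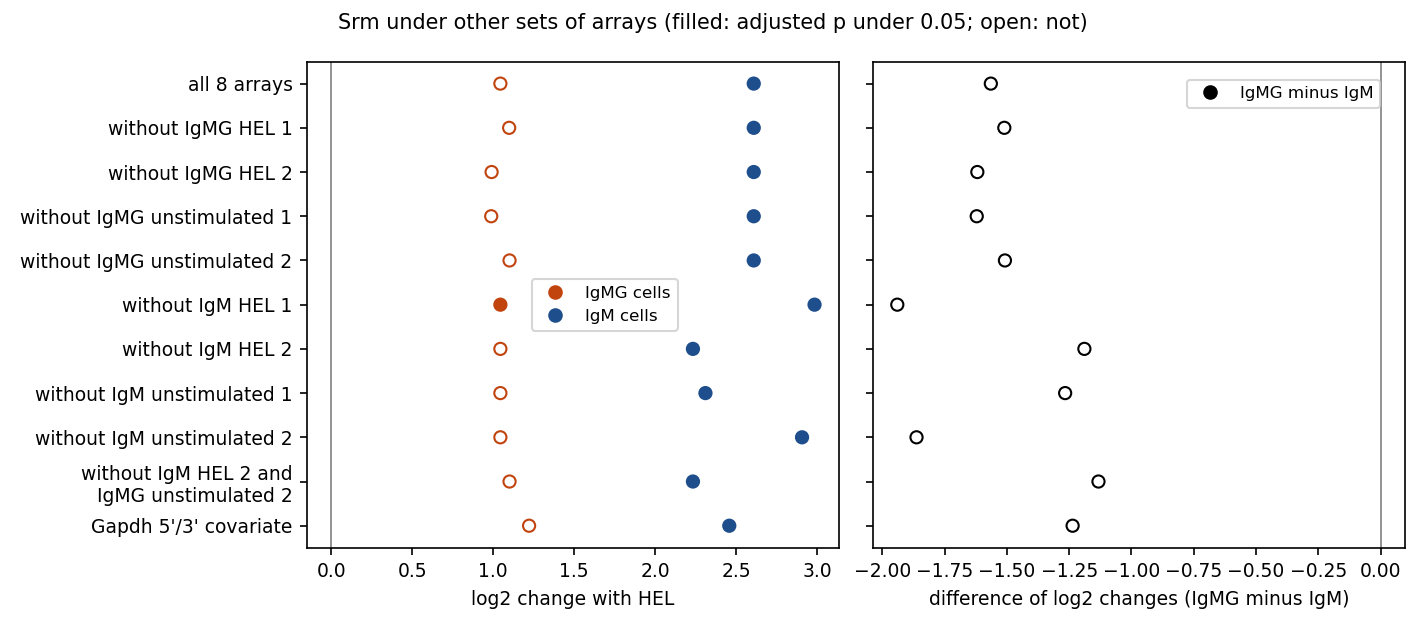
Log2 change of Srm with HEL in IgMG and IgM cells (left) and the difference of these changes (right, IgMG minus IgM) with all 8 arrays, with each array left out, without both arrays that stand apart, and with the log2 Gapdh ratio as covariate. Filled points have a limma adjusted p under 0.05: every point for IgM cells is filled, 1 point for IgMG cells is filled (without the first IgM array with HEL), and the differences, all below 0, are open.

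Odc1 (160084_at), whose product is the entry enzyme of the pathway, had small differences in these samples. Its signal was 146 and 176 on the IgMG arrays with HEL, against 95.2 and 119 on the unstimulated IgMG arrays. In IgM cells it was 166 and 169 with HEL, against 143 and 120 unstimulated. The groups did not overlap within either receptor, and all 4 arrays with HEL lay above all 4 unstimulated arrays, as held for 10.8% of tested probe sets, Srm among them. The log2 change was 0.52 ± 0.20 (SE; 95% interval 0.08 to 0.97) in IgMG cells, with a limma adjusted p = 0.159. In IgM cells it was 0.32 ± 0.20 (SE; 95% interval -0.13 to 0.76; adjusted p = 0.326). The difference of the responses, 0.20 ± 0.28 (SE; adjusted p = 0.828), had a 95% interval from -0.43 to 0.83. Odc1 levels of IgMG against IgM cells differed by -0.06 ± 0.20 with HEL and -0.26 ± 0.20 without HEL on the log2 scale (SE; adjusted p = 0.914 and 0.995 in limma). Its group means were 161 ± 20.9 in IgMG cells with HEL, 107 ± 17.1 in unstimulated IgMG cells, 168 ± 2.33 in IgM cells with HEL and 132 ± 16.2 in unstimulated IgM cells (SD, n = 2 each). The groups with HEL were the higher ones and overlapped between the receptors, and the unstimulated IgMG arrays lay just below the unstimulated IgM arrays. How many of all tested probe sets had unstimulated arrays apart between the receptors was not counted.

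Averaged over both receptors, a contrast added after the data were seen, the log2 change with HEL was 1.83 ± 0.20 (SE) for Srm (limma adjusted p = 0.000498) and 0.42 ± 0.14 (SE) for Odc1 (adjusted p = 0.0638). In that contrast 9.18% of tested probe sets rose and 11.0% fell. The Odc1 average passed with quantile normalisation (adjusted p = 0.0337), with the brightest 40% of probe sets (adjusted p = 0.0476) and without the second unstimulated IgMG array (adjusted p = 0.0491).

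The brighter Sms/Sms-ps probe set (98136_at) had opposite signs in the receptors. It had signals of 423 and 428 on the IgMG arrays with HEL, against 341 and 346 unstimulated. Its IgM arrays had 342 and 348 with HEL, against 443 and 475 unstimulated. Unstimulated IgMG arrays and IgM arrays with HEL thus shared the low level, and the groups overlapped within neither receptor. The log2 change was 0.30 ± 0.15 (SE) in IgMG cells and -0.40 ± 0.15 (SE) in IgM cells, with limma adjusted p = 0.283 and 0.117. Their difference was 0.69 ± 0.21 (SE; 95% interval 0.21 to 1.17), with an unadjusted p = 0.00968 and an adjusted p = 0.414. Arrays apart in opposite directions in the receptors were found for 5.02% of all tested probe sets. The spread between its replicate arrays was small, with group SDs of 3.54 and 3.04 in IgMG cells with and without HEL, and 4.17 and 22.8 in IgM cells with and without HEL (n = 2 each).

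The dimmer Sms/Sms-ps probe set (160630_at) did not show these opposite signs. Its signals were 89.8 and 88.4 on the IgMG arrays with HEL, against 103 and 86.5 unstimulated. In IgM cells they were 104 and 66.3 with HEL, against 97.4 and 145 unstimulated. The groups overlapped within each receptor. The log2 change was -0.07 ± 0.26 in IgMG cells and -0.45 ± 0.26 in IgM cells (SE; limma adjusted p = 0.909 and 0.293), and the difference of 0.37 ± 0.36 had a limma adjusted p = 0.739.

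Oaz1/Oaz1-ps was read by a bright and a dim probe set. The bright one (101013_at) had signals of 2547.5 and 2200.0 on the IgMG arrays with HEL, against 2666 and 3558 unstimulated. On the IgM arrays it had 2667 and 3405 with HEL, against 3766.5 and 2404 unstimulated. The unstimulated IgM arrays differed from each other by more than any of the group means did, and enclosed both IgM arrays with HEL. Both IgMG arrays with HEL lay below both unstimulated IgMG arrays, as held for 29.4% of tested probe sets. The log2 change was -0.38 ± 0.24 in IgMG cells and 0.00 ± 0.24 in IgM cells (SE; limma adjusted p = 0.399 and 0.997). The difference of the responses was -0.38 ± 0.33 (SE; adjusted p = 0.710).

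The dim Oaz1/Oaz1-ps probe set (161360_at) had signals of 35.7 and 37.6 on the IgMG arrays with HEL, against 20.4 and 12.4 unstimulated. The IgM arrays had 29.3 and 48.2 with HEL, against 21.1 and 46.9 unstimulated. In IgMG cells both arrays with HEL lay above both unstimulated arrays, as held for 23.7% of tested probe sets. This direction was opposite to that of the bright probe set, and the groups overlapped in IgM cells. The mean signal of the dim probe set, 31.45, lay below the median signal of every array. Its log2 change was 0.71 ± 0.34 in IgMG cells and 0.16 ± 0.34 in IgM cells (SE; limma adjusted p = 0.266 and 0.812). The 2 probe sets of Oaz1/Oaz1-ps therefore gave no common direction in IgMG cells.

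Counted by the brightest probe set of each gene, 0 of the 4 rose and 0 fell with HEL in IgMG cells in limma, and 2 had an unadjusted p under 0.05 (Odc1 and Srm), as had 1662 of all 7453. Among all tested probe sets 3.10% rose and 2.29% fell. In IgM cells 1 of 4 rose, Srm, and 0 fell, against 6.70% and 7.27% of all tested probe sets. These background counts depend on single arrays: 231 and 171 in IgMG cells became 48 and 10 without the second IgMG array with HEL and 68 and 25 without the first, and 499 and 542 in IgM cells became 181 and 177 without the second IgM array with HEL and 188 and 153 without the first unstimulated IgM array. The median log2 change of the 4 was 0.41 in IgMG cells and 0.16 in IgM cells, and that of all tested probe sets was -0.05 in IgMG cells and -0.02 in IgM cells. For the difference of the responses, and for IgMG against IgM without HEL, 0 of 4 passed, as did 0% of all probe sets, with 2 and 1 of the 4 at an unadjusted p under 0.05, against 750 and 344 of all 7453. With HEL, IgMG against IgM, 0 of 4 passed and 1 had an unadjusted p under 0.05, as had 1037 of all 7453, against 0 higher and 1 lower among all tested probe sets (0% and 0.0134%). That probe set was Ccl4, a chemokine gene, with a log2 difference of -2.78 ± 0.28 (SE; limma adjusted p = 0.0358), named after its value was seen. Its call was lost, with 0 probe sets lower, with an offset of 1, without the filter, without the variance trend, with the Gapdh covariate and without any single array with HEL of either receptor.

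**Figure D3:**
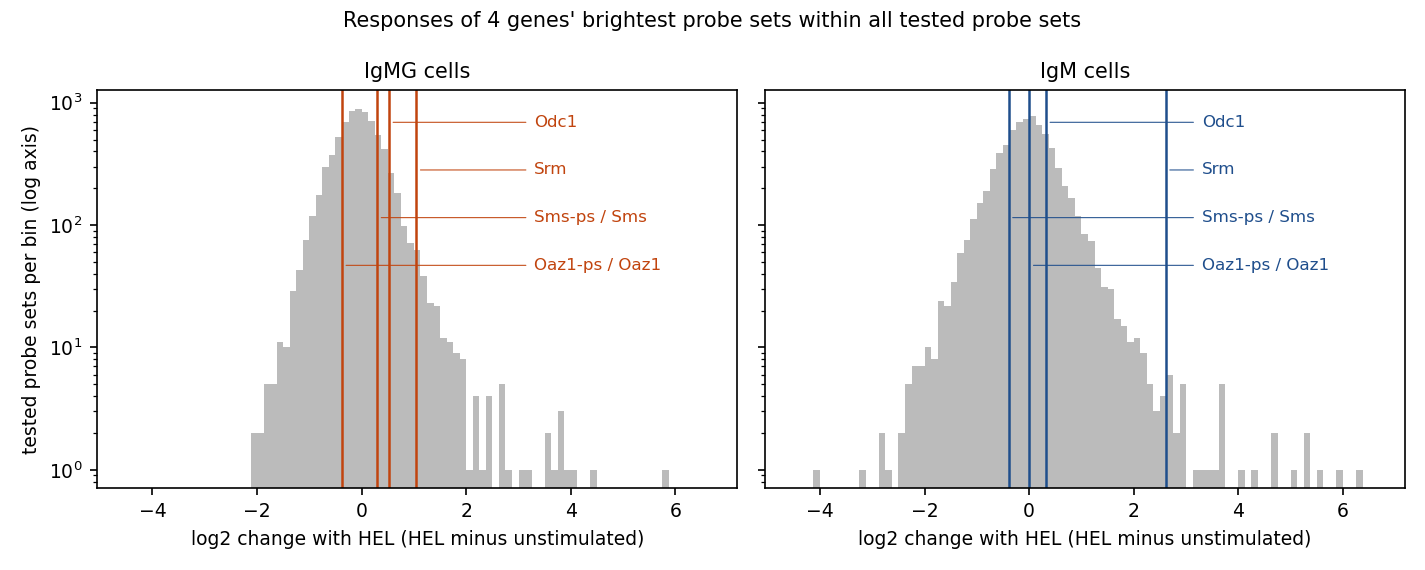
Distribution of the log2 change with HEL over 7453 tested probe sets (vertical axis: probe sets per bin, log axis) in IgMG cells (left) and IgM cells (right), with vertical lines at the brightest probe sets of the 4 genes. Srm lies at 1.04 in IgMG cells and 2.61 in IgM cells, in the upper tail of each, and the other 3 lie between -0.40 and 0.52.

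The wider list of polyamine genes held 19 genes that supply, control or use the pathway. Of these, 11 were measured by a probe set with a single symbol and 6 were bright enough to be tested: Azin1, Oaz2, Sat1, Mat2b, Ahcy and Dohh. In IgMG cells 0 of 6 rose and 0 fell, against 3.10% and 2.29% of all tested probe sets, with a median log2 change of 0.13 against -0.05. In IgM cells 1 of 6 rose, Dohh, and 1 fell, Mat2b, against 6.70% and 7.27%, with a median of 0.16 against -0.02. For the difference of the responses 0 of 6 passed, with 2 at an unadjusted p under 0.05, as had 750 of all 7453. Oaz3, Arg1, Arg2, Dhps and Eif5a were too dim, with mean signals of 4.88 to 18.0. Amd1, Azin2, Agmat, Smox, Paox, Mtap, Mat2a and Eif5a2 had no probe set in the annotation, alone or shared with other symbols, and were not measured.

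Hypusine formation uses spermidine, before its last step, to modify the translation factor eIF5A, and Dohh makes the enzyme for that last step. Dohh signals were 110.5 and 93.1 on the IgMG arrays with HEL, against 96.9 and 87.7 unstimulated, and those groups overlapped. In IgM cells they were 145 and 210 with HEL, against 75.3 and 61.7 unstimulated, without overlap. Of all tested probe sets, 27.6% had both IgM arrays with HEL above both unstimulated IgM arrays. Dohh rose by 1.18 ± 0.23 (SE) on the log2 scale in IgM cells (limma adjusted p = 0.0104), and its log2 change in IgMG cells was 0.12 ± 0.23 (SE; adjusted p = 0.815). The difference of the responses was -1.06 ± 0.32 (SE; unadjusted p = 0.00906, adjusted p = 0.414 in limma). For this contrast 750 of all 7453 had an unadjusted p under 0.05. As for Srm, the brighter IgM array with HEL was the one with the highest Gapdh 5'/3' ratio. The call in IgM cells was lost without the second unstimulated IgM array (log2 change 1.06, adjusted p = 0.0726) and without the second IgM array with HEL (0.93, adjusted p = 0.0750).

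Mat2b makes the regulatory subunit of methionine adenosyltransferase, the enzyme that forms S-adenosylmethionine, from which the aminopropyl groups of spermidine and spermine come. Its brighter probe set had signals of 723 and 670.0 on the IgMG arrays with HEL, against 998 and 813 unstimulated. On the IgM arrays it had 576 and 428 with HEL, against 996 and 1106 unstimulated. All 4 arrays with HEL lay below all 4 unstimulated arrays, as held for 12.9% of tested probe sets. Mat2b fell by 1.06 ± 0.19 (SE) on the log2 scale in IgM cells (limma adjusted p = 0.00777), and its log2 change in IgMG cells was -0.36 ± 0.19 (SE; adjusted p = 0.289). The call in IgM cells was lost without the second unstimulated IgM array (adjusted p = 0.0554) and without the second IgM array with HEL (adjusted p = 0.0556). The dimmer Mat2b probe set had the same sign in IgM cells, -0.36 ± 0.27 (SE; adjusted p = 0.417).

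The other tested genes of the list did not pass in either receptor. Azin1, the inhibitor that frees ornithine decarboxylase from antizyme, had log2 changes of 0.27 ± 0.22 in IgMG cells and 0.27 ± 0.22 in IgM cells (SE; limma adjusted p = 0.520 and 0.458). Oaz2, another antizyme gene, had -0.57 ± 0.23 and -0.53 ± 0.23 in IgMG and IgM cells (SE; adjusted p = 0.173 and 0.160). Sat1, whose product acetylates spermidine and spermine for export and breakdown, had 0.14 ± 0.21 and 0.60 ± 0.21 in IgMG and IgM cells (SE; adjusted p = 0.761 and 0.0968). The brightest of 3 probe sets of Ahcy, which hydrolyses the S-adenosylhomocysteine left by methylation, had 0.27 ± 0.25 and 0.05 ± 0.25 in IgMG and IgM cells (SE; adjusted p = 0.585 and 0.927). Averaged over both receptors, 1 of the 6 rose (Dohh) and 2 fell (Mat2b and Oaz2), against 9.18% and 11.0% of all tested probe sets. The average of Oaz2 was -0.55 ± 0.16 (SE; limma adjusted p = 0.0394), and its call was lost in 12 of 19 alternatives (adjusted p up to 0.134), quantile normalisation and no filter among them. That of Dohh was lost in 6 of 19.

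**Figure D4:**
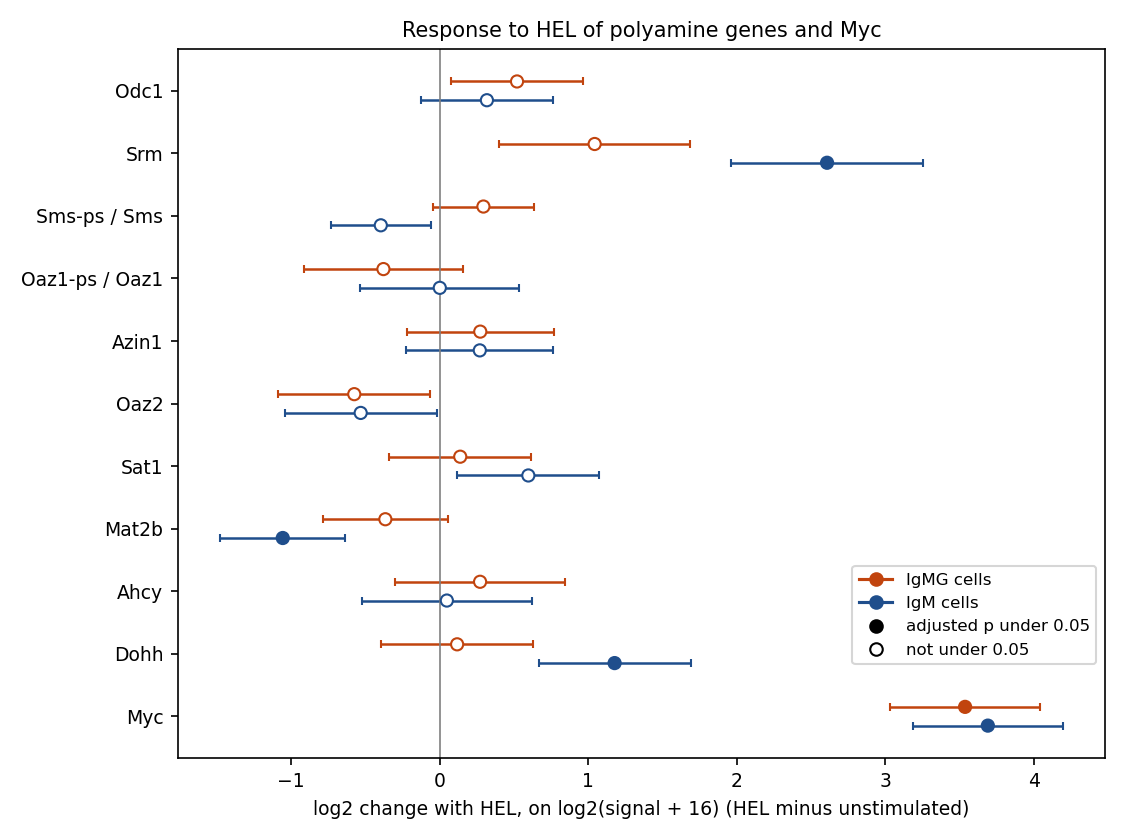
Log2 change with HEL (horizontal axis, HEL minus unstimulated on log2(signal + 16)) in IgMG and IgM cells for the 4 genes, the 6 tested genes of the wider list and Myc, with 95% intervals of the limma fit as bars. Filled points have an adjusted p under 0.05: Srm, Mat2b and Dohh in IgM cells and Myc in cells of both receptors.

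Odc1 is a textbook target of the transcription factor Myc, and Myc was set beside the 4 genes. Myc signals were 1459 and 1537 on the IgMG arrays with HEL, against 95.4 and 136 unstimulated, and 2635 and 1981 on the IgM arrays with HEL, against 140 and 187 unstimulated. It rose by 3.54 ± 0.22 (SE) in IgMG cells and 3.69 ± 0.22 (SE) in IgM cells on the log2 scale (limma adjusted p = 0.000107 and 5.01e-05), and the difference of the responses was -0.15 ± 0.31 (SE; 95% interval -0.87 to 0.56; adjusted p = 0.892). Myc levels of IgMG against IgM cells differed by -0.60 ± 0.22 with HEL and -0.45 ± 0.22 without HEL (SE; limma adjusted p = 0.288 and 0.995). The IgMG arrays lay below the IgM arrays in both, and the share of all tested probe sets with such a gap was not counted. Across the 8 arrays the log2 values of Srm and Myc had a Pearson r of 0.89, Odc1 and Myc 0.86, Sms/Sms-ps and Myc -0.13, and Oaz1/Oaz1-ps and Myc -0.32. Odc1 and Srm had 0.71. These values are descriptions over 4 groups of 2 arrays and mostly reflect the differences between the groups.

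Myc binds DNA at CACGTG, which reads the same on both strands, and the 250 bases before each gene's start were searched for it in RefSeq promoters of build GRCm38.p6. The table held 4 such windows for 3 of the genes (Odc1, Sms and Oaz1), and 1 of the 4 had the motif, against 6.02% of all 32851 windows. It held no window of Srm, so Srm was not searched. The match lay in a window of Sms, chrX:157492288-157492537 on the minus strand, starting 196 bases before the start. The Odc1 window, chr12:17544623-17544872 on the plus strand, had none. The other Sms window and that of Oaz1 had none either. Both windows are shown because they set the promoter of the textbook Myc target beside the only match among the 4 windows, with the motif in capitals and the bases read 5′ to 3′ on the strand of the gene.
Odc1 promoter: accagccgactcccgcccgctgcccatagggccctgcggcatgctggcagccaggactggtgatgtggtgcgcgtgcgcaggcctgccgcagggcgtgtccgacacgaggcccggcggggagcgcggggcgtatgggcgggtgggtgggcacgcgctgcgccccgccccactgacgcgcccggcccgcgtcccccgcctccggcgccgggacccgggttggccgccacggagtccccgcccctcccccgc
Sms promoter: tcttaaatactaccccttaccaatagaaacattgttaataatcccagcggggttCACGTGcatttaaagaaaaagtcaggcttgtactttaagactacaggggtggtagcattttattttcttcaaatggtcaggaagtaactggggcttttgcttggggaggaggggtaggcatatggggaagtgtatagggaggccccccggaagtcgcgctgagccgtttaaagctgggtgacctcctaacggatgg
A match is a run of letters and no measured site, and these letters outside the windows were not searched.

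The tested genes whose log2 values over the 8 arrays were most like those of each of the 4 were listed, 3 for each, from 5602 or 5603 candidates with a single symbol. For Srm they were Polr2h (Pearson r of 0.99), Pak2 (0.99) and Per1 (0.99), and for Odc1 they were Adss (0.97), Nudt21 (0.97) and Rell1 (0.96). Sms/Sms-ps was most like Recql (0.98), Tmod3 (0.94) and Gfra2 (0.94), and Oaz1/Oaz1-ps most like Vav1 (0.94), Bsg (0.93) and Tkt (0.91). These genes were picked for the highest r of all candidates over only 8 arrays, so a high r can arise by selection. The values are a description and were not tested. Among the 4 genes themselves, Srm and Sms/Sms-ps had a Pearson r of -0.41, Odc1 and Sms/Sms-ps 0.11, and Oaz1/Oaz1-ps had -0.07 with Odc1, -0.11 with Srm and -0.32 with Sms/Sms-ps.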

How the data were processed

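The values deposited by the authors are linear intensities, a single value for each probe set on each array, from MAS5 per the submitters' processing notes. The values of each array have nearly the same trimmed mean, so they are relative to an array's total, and a change shared by all transcripts would not be seen. Columns left unused numbered 0. Groups and replicate numbers came from the sample titles.

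From 12488 probe sets 66 controls were left out. Tests used log2(signal + 16). The offset makes changes of low signals look smaller. Of the 12422 other probe sets, the 7453 with the highest mean log2 value (60%) were fitted in limma 3.58.1 (R 4.3.3) as 4 group means on all 8 arrays. Moderated variances followed a trend with signal (4 residual and 4.87 prior degrees of freedom), and p-values were two-sided, with Benjamini-Hochberg adjustment over all 7453 at 0.05. For 2 arrays against 2, the smallest p of an exact permutation test is 0.333. The number of arrays limits the precision.

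The annotation of 2016 gave 10833 probe sets 1 symbol, 396 several and 1193 none. All 40 lookups of probe set symbols in the gene table of GRCm38.p6 matched, with symbols of several probe sets looked up more than once. A gene is given by its brightest probe set. Named were all probe sets of the 4 genes, the measured wider list, Myc, Egr1 and the 3 genes most like each of the 4. The genes, lists and alternatives were chosen with earlier results of these data known, and the mean HEL response and a crossed pairing were added after seeing the data.

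Same-numbered arrays did not deviate together from their group means (Pearson r over probe sets between -0.16 and 0.02), so the numbers were not taken as pairs. Scripts were tested on simulated data. Figures used matplotlib 3.10.9 in Python 3.11.15.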

Additional observations from a re-analysis of the deposited data

Results flagged for a closer look

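Probe sets of Sms/Sms-ps and Ahcy had signals apart in opposite directions in the receptors, with both arrays with HEL above both unstimulated arrays in cells of 1 receptor and below them in cells of the other, as held for 5.02% of all tested probe sets. For the brighter Sms/Sms-ps probe set this gave a difference of responses, IgMG minus IgM, of 0.69 ± 0.21 (SE) on the log2 scale and a limma adjusted p = 0.414. Of 3 probe sets of Ahcy, the one of middle brightness (96024_at) had signals of 178 and 182.5 on the IgMG arrays with HEL, against 216 and 214 unstimulated, and 296 and 347 on the IgM arrays with HEL, against 238 and 245 unstimulated. Its difference of responses was -0.62 ± 0.23 (SE; limma adjusted p = 0.465), and the others had the opposite sign, with 0.22 ± 0.36 (SE) for the brightest (96025_g_at) and 0.40 ± 0.34 (SE) for the dimmest (96026_at).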

How the results depend on the processing

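Alternatives were other offsets, array scalings and filters, no variance trend, only the compared arrays, a replicate block, a Gapdh covariate, each array left out, both arrays that stand apart left out (the second IgM array with HEL and the second unstimulated IgMG array), the threshold, and the mean of a gene's probe sets. With 2 arrays a group, a change of about the size of Odc1's over both receptors passed or failed with the choice of filter. The response of Srm in IgM cells passed in all 20 alternatives, with a log2 change of 2.07 to 2.98. Its difference of responses lay between -1.94 and -1.13 and did not pass in any of 19. With the replicate block 1 of the 4 genes was called in IgM cells and 0 in IgMG cells, as without it, and over all probe sets 173 rose and 100 fell in IgMG cells, against 231 and 171. With a crossed pairing 0 rose and 0 fell among unstimulated IgMG against IgM cells. Centring arrays on their medians gave 233 rises and 97 falls in IgMG cells, and moved the median difference of responses over all probe sets to 0.08, against -0.02. The causes of the changes below were not tested.

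Of the 4 genes, those called in IgMG cells numbered 1 with the brightest 40%, and 0 to 1 with an array left out. For the mean response they numbered 2 with quantile normalisation and with the brightest 40%, and 1 to 2 with an array left out. Of the 6 genes of the wider list, those called in IgM cells numbered 1 at an adjusted p under 0.01, and 0 to 2 with an array left out. For the mean response they numbered 1 at that threshold and without both arrays that stand apart, and 1 to 3 with an array left out.

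Uncalled log2 values that changed sign were these. With the Gapdh covariate Oaz1/Oaz1-ps (bright) had -0.30 in IgM cells, 0.32 for IgMG against IgM with HEL and 0.28 for the difference of responses. With it Sms/Sms-ps (dim) had -0.51 for IgMG against IgM with HEL and -0.21 for the difference, Odc1 0.050 for IgMG against IgM with HEL, and Ahcy -0.0053 for the difference. Without both arrays that stand apart, Oaz1/Oaz1-ps (bright) had -0.17 in IgM cells, -0.17 for IgMG against IgM unstimulated and 0.0027 for the difference, its dim probe set -0.093 in IgM cells and 0.22 for IgMG against IgM with HEL, and Sms/Sms-ps (dim) -0.19 for IgMG against IgM with HEL and -0.0067 for the difference. With the mean of its probe sets Oaz1/Oaz1-ps had 0.17 in IgMG cells, -0.28 for IgMG against IgM unstimulated, 0.086 for the difference and 0.12 for the mean response. With arrays centred on their medians Oaz1/Oaz1-ps (bright) had -0.040 in IgM cells and -0.031 for IgMG against IgM unstimulated, its dim probe set 0.00048 for IgMG against IgM with HEL, and Oaz2 0.057 for the difference. With quantile normalisation Oaz1/Oaz1-ps (bright) had -0.10 in IgM cells, its dim probe set 0.0044 for IgMG against IgM with HEL, Sms/Sms-ps (dim) 0.026 in IgMG cells, and the differences were 0.019 for Oaz2 and -0.041 for Azin1. With an offset of 64 the difference of Azin1 was -0.00033.

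With an array left out, the range in IgMG cells was -0.0036 to 0.55 for Azin1, -0.035 to 0.31 for Sat1 and -0.18 to 0.036 for Sms/Sms-ps (dim). In IgM cells it was -0.24 to 0.34 for Ahcy, -0.32 to 0.32 for Oaz1/Oaz1-ps (bright) and -0.22 to 0.54 for its dim probe set. For the difference it was -0.067 to 0.51 for Ahcy, -0.27 to 0.28 for Azin1, -0.38 to 0.073 for Myc and -0.28 to 0.20 for Oaz2. For IgMG against IgM unstimulated it was -0.29 to 0.36 for Oaz1/Oaz1-ps (bright) and -0.11 to 0.49 for Srm. For IgMG against IgM with HEL it was -0.29 to 0.22 for Oaz1/Oaz1-ps (dim), -0.18 to 0.061 for Odc1 and -0.19 to 0.35 for Sms/Sms-ps (dim).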
